A study of Homo sapiens with 6 samples.

Results

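The MYC-MAX-MXD network is a set of transcription factors that share 1 partner, MAX, and compete for it. Its 10 members here were taken by name: the activators MYC, MYCN and MYCL1, the common partner MAX, the repressors MXD1, MXD3, MXD4, MXI1 and MNT, and the large MAX-binding protein MGA. MYCL1 is the older symbol of MYCL, as the count tables give it. All 10 were among the 23686 genes counted, and all 10 had enough reads to be among the 14582 genes tested. RNA was sequenced from 6 samples of HEK293, an established human embryonic kidney line, in which the sampled cells carried green fluorescent protein (GFP+). For the 3 co-culture samples, GFP+ cells were kept for 10 h with HEK293 partner cells that carried DAAO and made reactive oxygen species (ROS), in medium with 25 µM D-alanine. DAAO most often stands for D-amino acid oxidase, which oxidises D-amino acids and releases hydrogen peroxide. The 3 controls were GFP+ cells labelled wild type, and both groups were sorted for GFP. All 6 samples carry the same treatment text in the labels, and whether the controls received D-alanine or grew beside partner cells cannot be read from them. The comparison asked how cells respond to ROS made by their neighbours.

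MYC proteins have a basic helix-loop-helix leucine zipper and bind DNA only as dimers with MAX. MYC-MAX dimers bind the E-box CACGTG and activate genes of ribosome production, metabolism and growth. MXD proteins and MNT bind the same E-box with MAX and recruit SIN3 and histone deacetylases, which repress. MGA joins MAX in a Polycomb complex called PRC1.6. MYC mRNA and protein turn over within a short time, and MYC transcription answers growth factor signals. HEK293 cells carry adenovirus E1A, which binds cofactors that MYC also uses, so the network is studied here in a transformed line.

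The E-box is shown first in the promoters of 2 members, because these are the 2 members whose window holds it. RefSeq windows of 250 bases before a gene's start (GRCh38.p14) were found for 9 of the 10 members, and MYC had no match. CACGTG, which reads the same on both strands, was present for MXD4 and MNT. Over all such windows, 7.73% of 27305 genes held it. For 6 of the 9 matched members, MAX, MXD4 and MNT included, a window shared at least 20 bases with a GENCODE 29 transcript of the same gene, because some starts differ between the annotations, so not all of the sequence searched is promoter. Only the bases of the MXD4 window (chr4:2262295-2262359, minus strand) and of the MNT window (chr17:2401119-2401310, minus strand) that lie before such a stretch are printed, with the E-box in capitals:
MXD4: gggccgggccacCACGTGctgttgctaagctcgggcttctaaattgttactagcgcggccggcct
MNT: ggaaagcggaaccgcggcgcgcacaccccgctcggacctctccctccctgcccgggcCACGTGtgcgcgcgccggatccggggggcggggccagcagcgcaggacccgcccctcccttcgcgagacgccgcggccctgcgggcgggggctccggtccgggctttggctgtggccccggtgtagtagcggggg
The E-box begins 238 bases before the RefSeq start of MXD4 and 193 bases before that of MNT. A match is a description of the letters and not a measured binding site. MXD4 RNA fell in co-culture, as given below, and MNT RNA did not pass the test.

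Levels were taken from reads on the reverse strand, the strand that this stranded kit reads for each gene. They are given as CPM, reads of a gene relative to the reads of all tested genes in its library, scaled between libraries by trimmed means of M-values (TMM). The libraries held 19091085 to 36250314 reverse-strand gene reads, of which the tested genes held all but 0.0473%. Relative to all gene reads and before TMM scaling, a single read was worth 0.0276 to 0.0524 CPM. In edgeR's quasi-likelihood test with Benjamini-Hochberg adjustment, 704 of the 14582 genes fell under an adjusted p of 0.05, which is 4.83%, with 2.66% higher and 2.17% lower. All but 2 libraries had a median of 1.57% to 1.75% of reads on the unexpected strand over 4907 well-covered genes. Co-culture libraries 2 and 3 had 0.124% and 0.211%, so fits that add this strand class as a batch are given beside the calls. The HEK293 markers PAX2, NEFL, NEFM, LIN28B, IGF2BP1, VIM and KRT18 were all detected, and VIM was the 1 of these 7 past the threshold, at a log2 fold change of 0.40 (edgeR adjusted p 0.00793). The markers PTPRC, CD3E, ALB, CDH5, HBB, MYOD1 and GFAP of other cell types summed to between 0.782 and 1.30 CPM, and CD3E and HBB were at 0 in all 6 libraries. The partner cells were HEK293 too, so these markers do not tell them from the sorted cells. The labels do not say that the replicates came from separate cultures, so p-values measure the spread between these samples, which may be technical.

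Divided by the length of the longest coding transcript in GENCODE 29, MXI1 and MAX had the highest mean levels of the network over the 6 libraries. MXI1 had a mean of 16.2 CPM per kilobase (kb), with a range of 13.9 to 19.1, and MAX had 15.3, with a range of 12.6 to 18.2. Their order turned between the groups: in the controls MAX (17.3) stood above MXI1 (14.8), and in co-culture MXI1 (17.5) stood above MAX (13.4). MXD4 followed at 9.88 and MGA at 9.18 CPM per kb, with MXD4 above MGA in the controls (10.9 and 9.28) and below it in co-culture (8.85 and 9.08). Within both pairs the ranges over the 6 libraries overlapped. MYC, MNT, MXD1 and MXD3 lay close together at 6.29, 6.02, 5.95 and 5.44 CPM per kb, and each overlapped the next. MYCL1 at 3.01 and MYCN at 2.04 CPM per kb were the lowest, and their ranges did not overlap. MYC therefore made up the largest share of the MYC family RNA per kb, at 49.2% to 65.1%. With the length of all exons joined in place of the longest transcript, MXI1 and MAX were still the highest pair, MGA (7.51) came before MXD4 (5.68), and MYCN (2.04) and MYCL1 (1.94) overlapped. The annotation that the authors counted on is not given in the sources used here, so these orders are approximate.

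**Figure D1:**
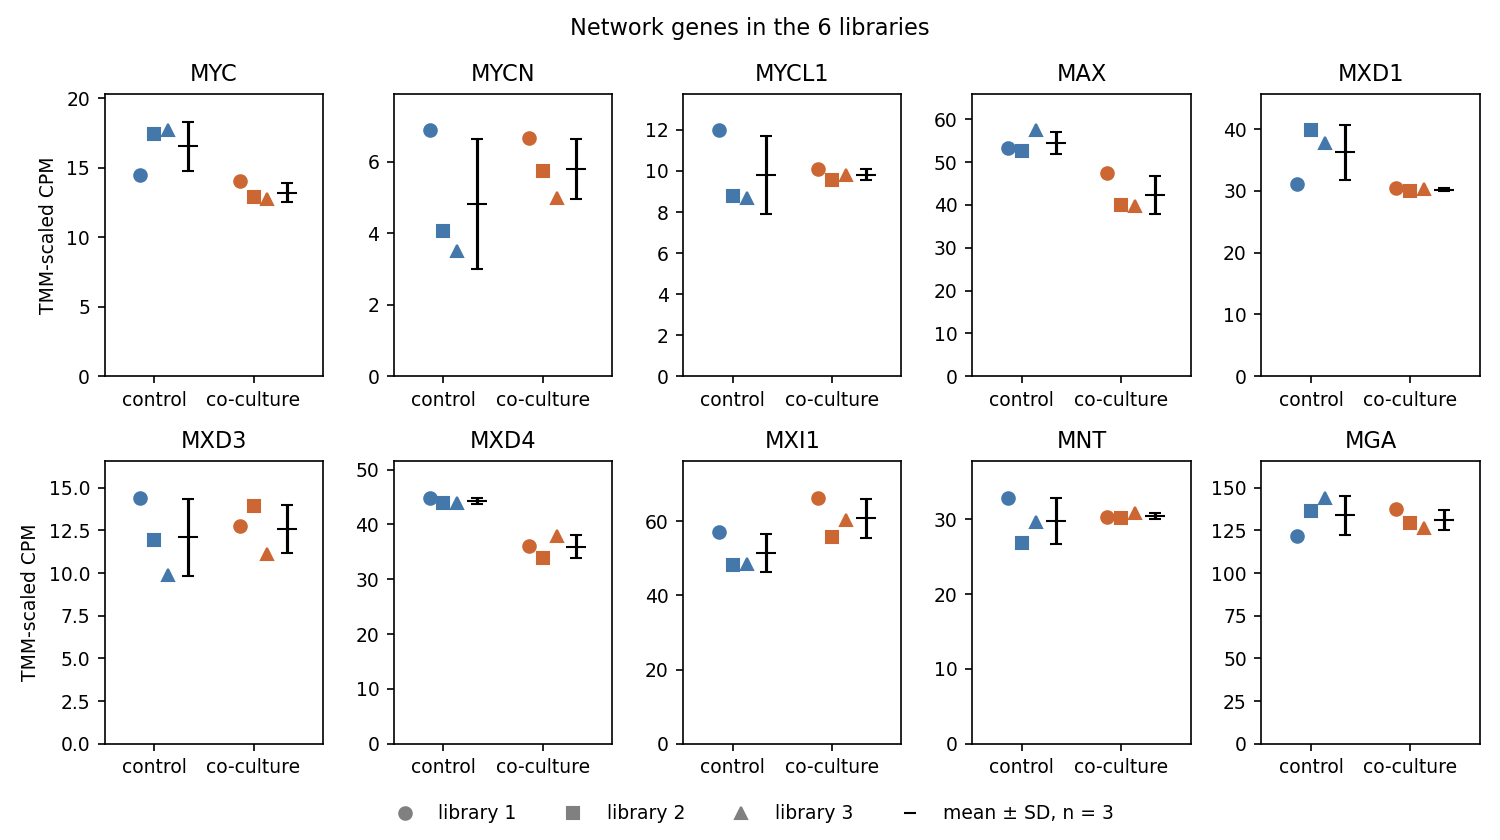
TMM-scaled CPM of each network gene (y axis, from 0) in 3 control and 3 co-culture libraries. Symbols mark the library number and black bars the mean ± SD (n = 3). The groups do not overlap for MYC, MAX, MXD1 and MXD4, all lower in co-culture.

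Of the 10 members, 2 fell in co-culture, MAX and MXD4, and 0 rose in edgeR, DESeq2 or limma-voom (1, MXI1, was higher at an unadjusted p under 0.05 in edgeR). Of all tested genes edgeR called 4.83%, and 2.17% were called as lower. The members' median log2 fold change was -0.01, against 0.00 for all tested genes, with 5 members above 0 and 5 below. Without regard to sign the median was 0.25 for the members and 0.13 for all tested genes. CPM ranges of the groups did not overlap for 4 members, MYC, MAX, MXD1 and MXD4, all lower. Among all tested genes 29.3% showed no overlap, and 15.0% lay lower without overlap. At an unadjusted p under 0.05 there were 5 members (these 4 and MXI1), against 23.2% of all tested genes. In bulk RNA, a lower level in every cell and a loss of RNA from some cells cannot be told apart.

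MAX, the common partner in this network, had the lowest log2 fold change of the 10. Its levels were 47.5, 39.9 and 39.6 CPM in co-culture libraries 1, 2 and 3, and 53.4, 52.5 and 57.4 CPM in controls 1, 2 and 3. Every co-culture library lay below every control, and co-culture library 1 lay nearest to the controls. Means were 42.3 ± 4.49 against 54.4 ± 2.60 CPM (SD, n = 3 in both groups). The log2 fold change was -0.37 (SE 0.08, 95% interval -0.55 to -0.18, edgeR adjusted p 0.0338), a co-culture level 0.776 times that of the controls. The difference was smaller once the strand class was taken into account. With that class as a batch term, which leaves co-culture library 1 as the only one compared with controls of its own class, its log2 fold change was -0.20 (edgeR adjusted p 0.466). Reads on the opposite strand of MAX followed the class as well, with 56, 2 and 12 reads in co-culture libraries 1, 2 and 3 and 72, 62 and 69 in the controls. In GENCODE 29 the genes FNTB and CHURC1-FNTB overlap MAX on the opposite strand. Whether such reads had a part in the MAX result was not tested. The edgeR call failed as well on removal of co-culture library 2 (-0.32, edgeR adjusted p 0.189), co-culture library 3 (-0.32, 0.105), control 2 (-0.39, 0.119) or control 3 (-0.33, 0.0541). Over 15 other settings the adjusted p ran from 0.00342 to 0.466.

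MYC, the activator that gives the network its name, stood at 14.0, 12.9 and 12.7 CPM in co-culture libraries 1, 2 and 3. In controls 1, 2 and 3 it stood at 14.5, 17.4 and 17.7 CPM. The groups did not overlap, but control 1 lay within 0.5 CPM of co-culture library 1. Means were 13.2 ± 0.698 against 16.5 ± 1.76 CPM, a log2 fold change of -0.33 (SE 0.10, 95% interval -0.56 to -0.10), and the edgeR adjusted p of 0.0939 missed the threshold. Without control 1 the log2 fold change was -0.42 with an edgeR adjusted p of 0.00393, in a fit that called 20.8% of all genes. With the strand class in the model it was -0.24 (edgeR adjusted p 0.566). The ratio of MYC to MAX CPM overlapped between the groups, from 0.295 to 0.323 in co-culture and from 0.272 to 0.332 in the controls.

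MYCN, the paralogue best known from embryonic and neural tissue, stood at 6.65, 5.75 and 4.97 CPM in co-culture and at 6.87, 4.07 and 3.49 CPM in controls 1, 2 and 3. Control 1 exceeded every co-culture library, while controls 2 and 3 lay below all of them. The log2 fold change was 0.27 (SE 0.24, 95% interval -0.26 to 0.80, edgeR adjusted p 0.539). Leaving out control 1 brought it to 0.61 (edgeR adjusted p 0.0162), in the fit that called 20.8% of all genes. Leaving out control 3 brought it to 0.066 (edgeR adjusted p 0.889). MYCL1, the family member first found in lung cancer, stood at 10.1, 9.55 and 9.81 CPM in co-culture and at 12.0, 8.76 and 8.67 CPM in the controls. Its co-culture libraries all lay inside the range of the controls, with a log2 fold change of 0.01 (95% interval -0.30 to 0.31, edgeR adjusted p 0.986) that turned to -0.030 when libraries were scaled by total counts.

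Per kb of transcript, MYC made up 51.1%, 51.4% and 52.2% of the MYC family RNA in co-culture libraries 1, 2 and 3. In the controls it made up 49.2%, 63.4% and 65.1%. Control 1 thus lay nearer to the co-culture libraries than to the other controls, but only its MYCN share was inside their range. Its MYC share was below that range and its MYCL1 share, at 29.5%, above it. Controls 2 and 3 had larger shares of MYC and smaller shares of MYCN. MYCN made up 18.5% to 22.1% in co-culture, 21.2% in control 1, and 13.5% and 11.7% in controls 2 and 3. Summed over the 3 genes, the family stood at 10.3 to 11.6 CPM per kb in co-culture and 11.5 to 12.5 in the controls. These shares and sums were formed with the values known and were not tested.

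PVT1, the long noncoding RNA encoded beside MYC, stood at 5.55, 6.60 and 6.37 CPM in co-culture and 6.87, 3.96 and 5.06 CPM in the controls. The groups overlapped, at a log2 fold change of 0.22 (95% interval -0.20 to 0.65, edgeR adjusted p 0.520). Leaving out control 2 brought it to 0.060 and leaving out control 1 to 0.44, with the edgeR adjusted p over the threshold in both fits. MYCNOS, the antisense RNA of MYCN, had 0 to 2 reads in each library, at or under the 3 reads that a count of 0 allows, and was not tested.

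MXD4, an MXD repressor linked to differentiated and resting cells, gave the cleaner split of the 2 called members. It stood at 36.0, 33.8 and 38.0 CPM in co-culture libraries 1, 2 and 3 and at 44.8, 44.0 and 43.8 CPM in the controls. The controls lay within about 1 CPM of each other, and every co-culture library was lower. Means were 35.9 ± 2.09 against 44.2 ± 0.548 CPM, a log2 fold change of -0.30 (SE 0.07, 95% interval -0.45 to -0.15, edgeR adjusted p 0.0359). With the strand class in the model the size was the same at -0.30, and the edgeR adjusted p was 0.322. Leaving out single libraries gave -0.34 to -0.25, and the call was lost without co-culture library 1, 2 or 3 or control 2 (edgeR adjusted p 0.147, 0.202, 0.0544 and 0.146). Over 15 other settings the adjusted p ran from 0.00746 to 0.322.

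MXD1, the founding MXD repressor, was almost constant in co-culture, at 30.4, 29.9 and 30.3 CPM. The controls stood at 31.2, 39.8 and 37.7 CPM. The ranges did not overlap, with control 1 less than 1 CPM above the co-culture libraries. The log2 fold change was -0.26 (SE 0.09, 95% interval -0.46 to -0.06, edgeR adjusted p 0.115). Without control 1 it was -0.36 (edgeR adjusted p 0.00154), in the fit that called 20.8% of all genes. Without control 2 it was -0.19 (edgeR adjusted p 0.359).

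MXI1, also called MXD2 and known as a target of hypoxia-inducible factors, had higher means in co-culture. It stood at 66.3, 55.8 and 60.3 CPM in co-culture libraries 1, 2 and 3 and at 57.2, 48.1 and 48.5 CPM in the controls. Control 1 lay above co-culture library 2, so the ranges overlapped. The log2 fold change was 0.25 (SE 0.09, 95% interval 0.05 to 0.44, edgeR adjusted p 0.127). Without control 1 it was 0.33 (edgeR adjusted p 0.00329), in the fit that called 20.8% of all genes. With the strand class in the model it was 0.37 (edgeR adjusted p 0.286).

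MXD3, the MXD repressor found in dividing cells, stood at 12.8, 13.9 and 11.1 CPM in co-culture and 14.4, 11.9 and 9.90 CPM in the controls. The groups overlapped, at a log2 fold change of 0.06 (95% interval -0.26 to 0.38, edgeR adjusted p 0.842). Its locus carried 6.60 to 11.0 times as many reads on the opposite strand, where PRELID1 overlaps it in GENCODE 29. MXD3 is thus the member whose count is most open to reads of a neighbour, and the part of such reads was not tested.

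The summed level of the MXD family overlapped between the groups, while the shares of MXI1 and MXD4 in it did not. Summed per kb, MXD1, MXD3, MXD4 and MXI1 stood at 35.9 to 39.0 CPM per kb in co-culture and 35.9 to 39.5 in the controls. MXI1 made up 48.9%, 44.8% and 46.9% of that sum in co-culture libraries 1, 2 and 3, against 41.8%, 37.4% and 39.0% in the controls. MXD4 made up 22.7%, 23.2% and 25.3% in co-culture, against 28.0%, 29.2% and 30.1% in the controls. For MXI1 and MXD4, control 1 had shares between those of the other controls and those of the co-culture libraries. Its MXD1 share of 14.1% lay inside the co-culture range of 13.9% to 14.9%, against 19.2% and 18.8% in controls 2 and 3. The ratio of MXI1 to MXD4 CPM, which does not depend on how libraries are scaled or on gene length, was 1.84, 1.65 and 1.59 in co-culture and 1.28, 1.10 and 1.11 in the controls. The ratio of MYC to MXI1 CPM was 0.211 to 0.231 in co-culture and 0.254, 0.362 and 0.364 in controls 1, 2 and 3. MAX divided by the sum of the other 9 members, per kb, was 0.202 to 0.228 in co-culture and 0.253 to 0.287 in the controls. These ratios were chosen after the values were seen, so they are given as descriptions with no test.

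**Figure D2:**
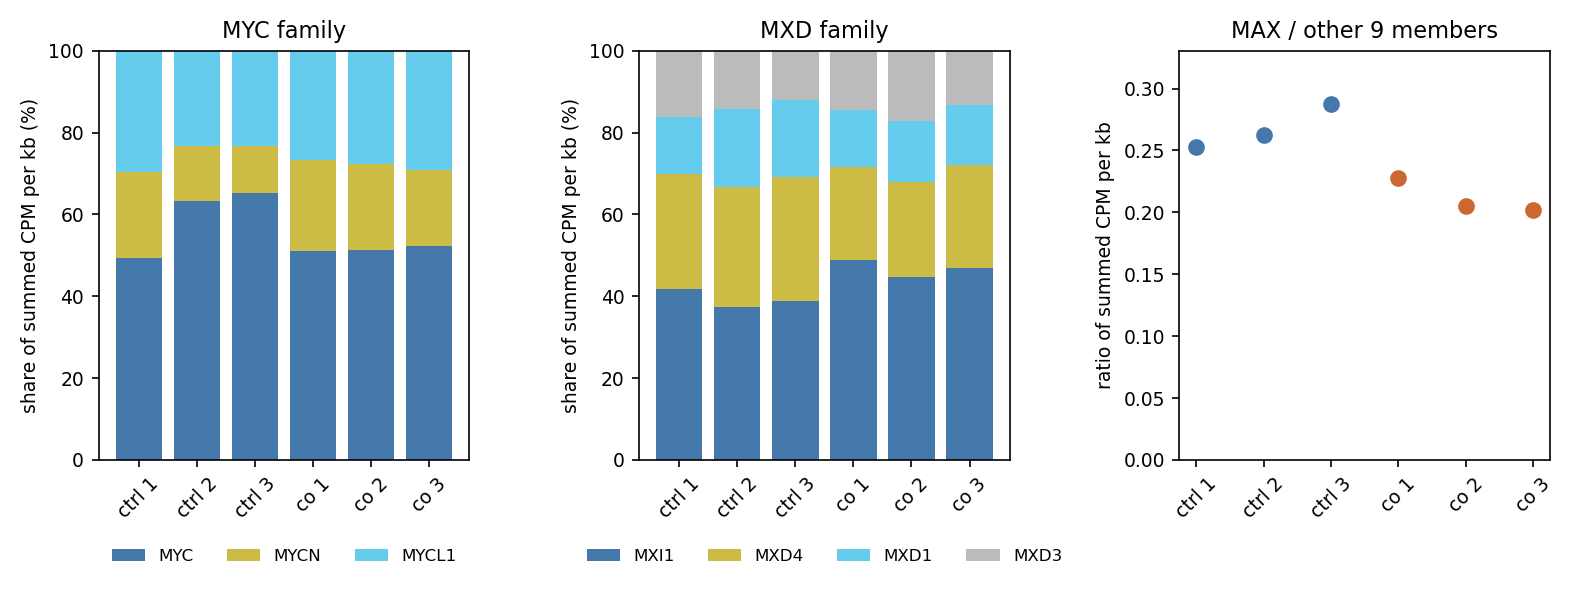
Left and middle, share (%) of each gene in the summed CPM per kb of the MYC family and the MXD family, by library (ctrl, control; co, co-culture). Right, MAX divided by the summed other 9 members. MXI1 takes 44.8% to 48.9% of the MXD family in co-culture and 37.4% to 41.8% in the controls.

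MNT, the broadly expressed MAX partner that opposes MYC, stood at 30.3, 30.2 and 30.9 CPM in co-culture and 32.9, 26.8 and 29.6 CPM in the controls. The co-culture libraries lay inside the control range, at a log2 fold change of 0.04 (95% interval -0.15 to 0.22, edgeR adjusted p 0.836). MGA stood at 137, 129 and 127 CPM in co-culture and 122, 136 and 144 CPM in the controls, again with overlap. Its log2 fold change was -0.03 (95% interval -0.19 to 0.12, edgeR adjusted p 0.820). For these 2 genes the intervals held no change larger than 0.22 on the log2 scale in either direction, narrower than for MYCN, MYCL1 and MXD3.

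**Figure D3:**
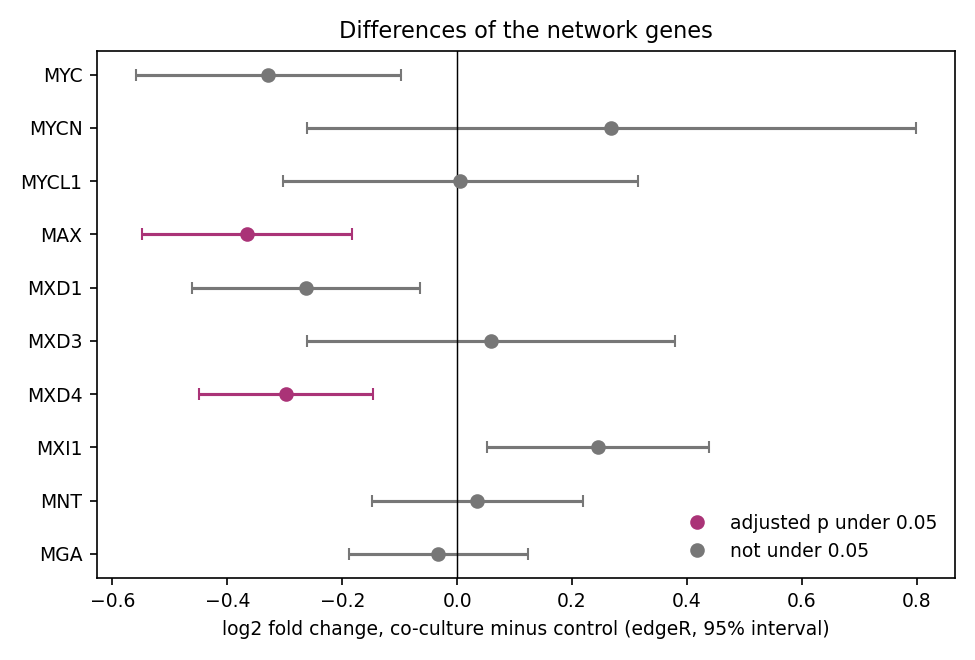
Log2 fold change of each network gene (x axis, co-culture minus control) with its 95% interval from edgeR's fit over all genes. MAX and MXD4, in purple, passed the threshold, and the intervals of MYC, MXD1 and MXI1 also excluded 0 before adjustment.

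MAX and MXD4 were the 2 members called under every other scaling, tool, filter and count column tried. The share of all genes called was 6.05% with total counts, 5.29% with upper-quartile scaling, 6.96% in DESeq2, 4.63% in limma-voom, 4.50% with no filter on low counts, 6.29% at a minimum of 5 CPM in 3 libraries and 4.46% when strand was ignored. With the strand class in the model 0 members and 0.199% of all genes passed in edgeR, and 1824 genes had an unadjusted p under 0.05. The replicate number as a block gave 0 members and 1.12% of all genes.

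Control 1 was the control nearest to the co-culture mean for 4 of the 10 members, MYC, MYCN, MXD1 and MXI1. These are the 4 that joined MAX and MXD4 among the calls when it was left out, so that 6 of the 10 members passed. Dropping the control nearest to the co-culture mean widened the difference for these 4, so the match is partly built in. In the fit without control 1, 3069 of 14734 genes, 20.8%, passed as well. In edgeR without control 2 or co-culture library 2 or 3, 0 members passed, and 0.440%, 0.503% and 2.18% of all genes did. MXD4 alone passed without control 3, and MAX alone passed without co-culture library 1, with 5.0% and 0.831% of all genes called.

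**Figure D4:**
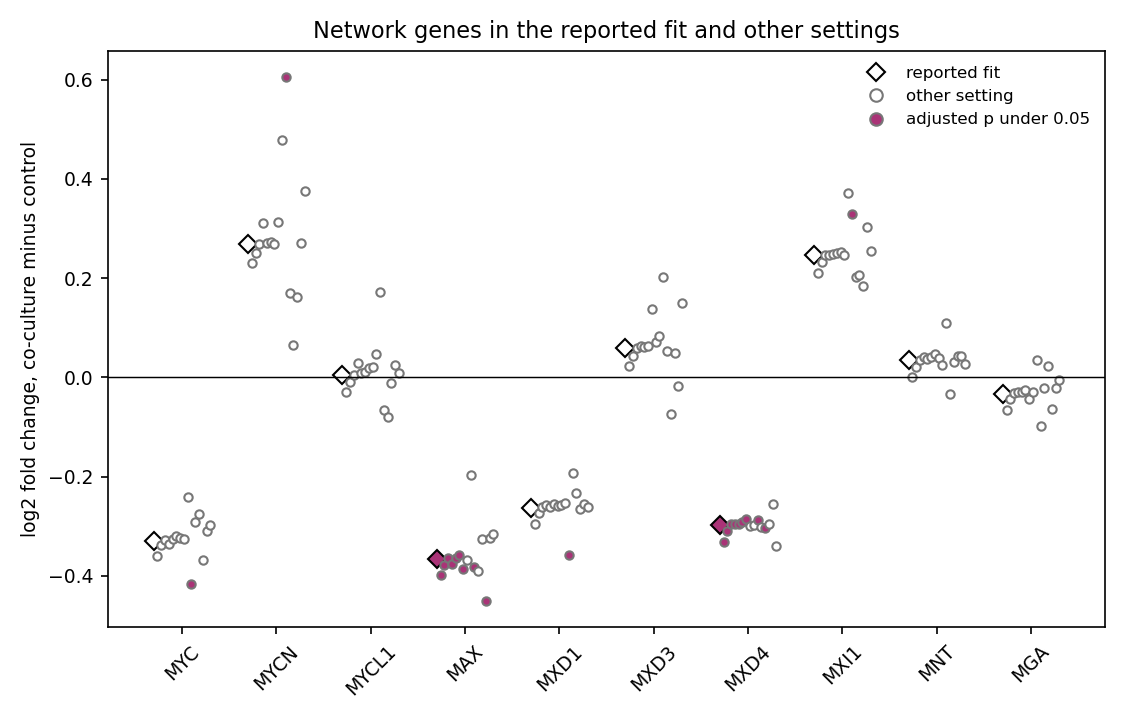
Log2 fold changes of the network genes (y axis) in the reported fit (diamond) and 15 other settings (circles), filled where the adjusted p was under 0.05. MYC, MAX, MXD1 and MXD4 lie below 0 and MYCN and MXI1 above 0 in all 16 fits, while MYCL1, MXD3, MNT and MGA fall on both sides.

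A parallel arm of the network is built on MLX, which pairs with the glucose-sensing factors MLXIP (MondoA) and MLXIPL (ChREBP). Of its 5 genes 0 passed in edgeR, DESeq2 or limma-voom and 0 had an unadjusted edgeR p under 0.05, with 3 log2 fold changes above 0 and 2 below. EdgeR called 4.83% of all tested genes, and 23.2% had an unadjusted p under 0.05. MLX stood at 78.8 to 86.8 CPM in co-culture and 85.8 to 93.4 CPM in the controls, with a log2 fold change of -0.11 (edgeR adjusted p 0.312). PSMC3IP overlaps MLX on the opposite strand, where 25.3% to 27.0% of the reads lay. MLXIP had a log2 fold change of 0.04 (95% interval -0.12 to 0.21) and MLXIPL 0.39 (95% interval -0.05 to 0.82). TXNIP and ARRDC4, arrestin-domain genes activated by MLXIP-MLX dimers, differed by -0.42 (SE 0.28) and 0.30 (SE 0.14) on the log2 scale, with edgeR adjusted p-values of 0.420 and 0.241. TXNIP stood at 47.5 CPM in control 1 and between 22.8 and 25.4 CPM in the other 5 libraries. Without control 1 its log2 fold change was -0.022. In that fit, which called 20.8% of all genes, MLXIPL (0.62, edgeR adjusted p 0.00809) and ARRDC4 (0.50, 0.000182) passed. Without control 3, MLXIPL stood at 0.19 and ARRDC4 at 0.16.

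The genes of proteins that the network's dimers recruit gave 1 call, where 4.83% of all tested genes were called and 23.2% had an unadjusted p under 0.05. Of 16 cofactors of MYC, 1 passed: PAF1, a subunit of the elongation complex that bears its name, fell from 280.1 ± 6.78 to 235 ± 7.46 CPM, a difference of -0.25 on the log2 scale (SE 0.06, edgeR adjusted p 0.0345). In this list 5 of the 16 had an unadjusted edgeR p under 0.05, and the median was -0.07, with 4 genes above 0 and 12 below. PAF1 lost its call in every fit that left out a library except the one without control 1, at log2 fold changes from -0.27 to -0.22, and with the strand class (-0.23, edgeR adjusted p 0.346). Among 11 SIN3, deacetylase and corepressor genes that serve MXD proteins and MNT, 0 passed in edgeR, DESeq2 or limma-voom, 2 had an unadjusted edgeR p under 0.05, and the median was -0.04. SAP30, a subunit of the SIN3 complex, stood at -0.25 (edgeR adjusted p 0.147). Among the 10 partners of MGA in PRC1.6, 0 passed by the same 3 tools and 2 had an unadjusted edgeR p under 0.05. The median was -0.06, with E2F6 at -0.19 and RING1 at -0.18 (edgeR adjusted p 0.211 and 0.129).

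Of 21 genes that control the stability of MYC protein, 1 passed, a share near the 4.83% of all tested genes. FBXL14, a ubiquitin ligase subunit that targets MYC, fell from 27.4 ± 2.41 to 19.8 ± 1.12 CPM, with 18.7, 19.8 and 20.9 CPM in co-culture and 24.7, 29.4 and 28.1 CPM in the controls. The groups did not overlap, and the difference was -0.47 on the log2 scale (SE 0.09, edgeR adjusted p 0.0178). It lost the call with the strand class (-0.55, edgeR adjusted p 0.189) and without control 2, co-culture library 1 or co-culture library 2 (-0.42, -0.42 and -0.46). The list's median was -0.06, with 5 genes above 0 and 16 below. Of the 21, 6 had an unadjusted edgeR p under 0.05, against 23.2% of all tested genes.

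The list of 50 genes that MYC is known to activate, most of them for ribosome production, nucleotide synthesis and translation, was balanced around 0. Of 49 tested, 24 had a log2 fold change above 0 and 25 below, the median was -0.01, and 1 passed. The share called over all tested genes was 4.83%. An unadjusted edgeR p under 0.05 was found for 10 of the 49, against 23.2% of all tested genes. EIF4A1 was listed at 0 reads in all libraries and was not tested. Whether its RNA was absent or its reads were not assigned to it cannot be told from these counts. ODC1, the rate-limiting enzyme of polyamine synthesis, rose from 275 ± 22.7 to 337 ± 9.47 CPM, by 0.29 on the log2 scale (SE 0.07, edgeR adjusted p 0.0423). Its levels were 332, 330.3 and 348 CPM in co-culture and 249, 290 and 287 CPM in the controls, without overlap. ODC1 lost the call with the strand class (0.27, edgeR adjusted p 0.348) and on removal of control 2 or of a single co-culture library, whichever it was. Over all 6 removals its log2 fold change ran from 0.22 to 0.33. Of the 42 genes of this list with a RefSeq window, 13 (31.0%) held CACGTG in the 250 bases before a start, against 7.73% of all genes. The list was drawn up as MYC targets, so this share describes the choice of genes and not the data.

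Of 14 genes that MYC represses with its partner MIZ1 or otherwise, 13 were tested, 2 rose and 2 fell, with a median of 0.06. Among all tested genes 2.66% were called higher and 2.17% lower. An unadjusted edgeR p under 0.05 was found for 7 of the 13, against 23.2% of all tested genes. GADD45B, a stress-inducible growth arrest gene, rose from 17.7 ± 1.98 to 28.9 ± 2.08 CPM, with 31.3, 28.0 and 27.4 CPM in co-culture and 16.1, 17.2 and 19.9 CPM in the controls. This difference of 0.70 on the log2 scale (SE 0.10, edgeR adjusted p 0.00435) was the largest among the called genes of these lists, and it passed in 13 of 15 other settings. The exceptions were the fit without control 2 (0.68, edgeR adjusted p 0.0503) and the one with the strand class (0.82, 0.0586). ITGA6, a laminin-binding integrin subunit, rose from 134 ± 1.89 to 165 ± 3.05 CPM (log2 fold change 0.30, edgeR adjusted p 0.0145). The genes that fell encode inhibitors of cyclin-dependent kinases. CDKN2C (p18) fell from 74.4 ± 6.34 to 53.1 ± 2.61 CPM, a difference of -0.49 on the log2 scale (SE 0.08, edgeR adjusted p 0.00719). CDKN1B (p27) fell from 92.0 ± 11.9 to 70.3 ± 5.32 CPM, a difference of -0.39 (SE 0.09, edgeR adjusted p 0.0434). The listed targets of repression thus moved in both directions. ITGA6 and CDKN2C each lost the call without control 2, co-culture library 1 or co-culture library 2, with log2 fold changes from 0.29 to 0.32 and from -0.55 to -0.44 over the fits that left out a library. Among those 6 fits CDKN1B passed only in the one without control 1, over a range of -0.48 to -0.29. With the strand class ITGA6, CDKN2C and CDKN1B stood at 0.32, -0.57 and -0.27 (edgeR adjusted p 0.197, 0.126 and 0.447).

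**Figure D5:**
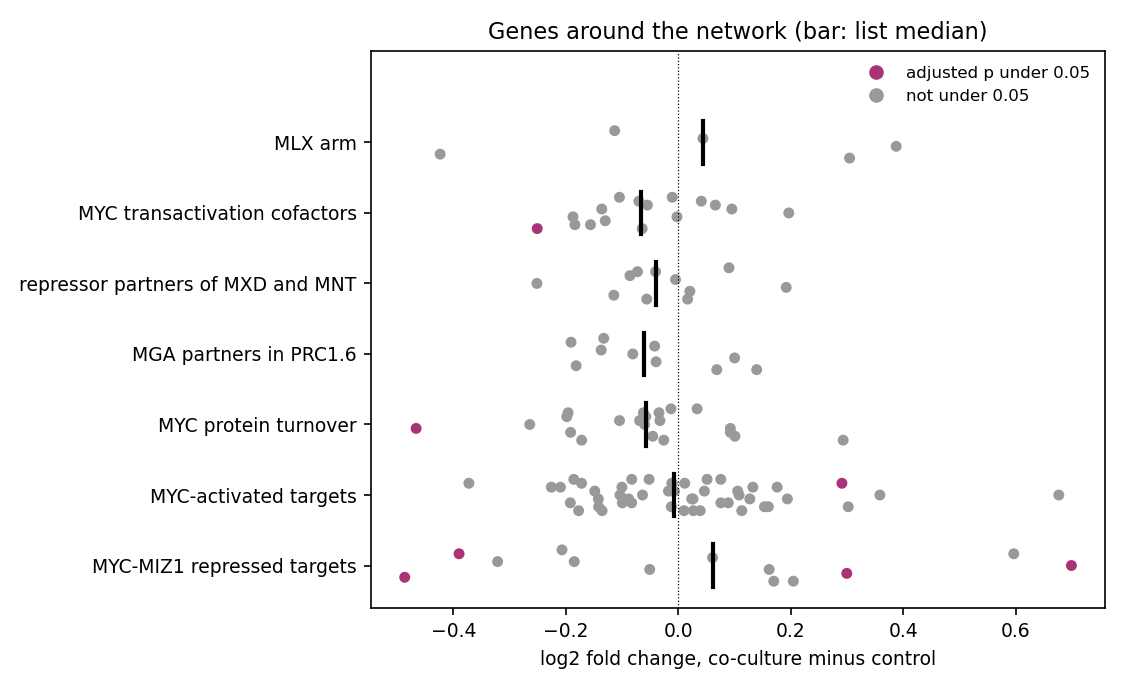
Log2 fold changes (x axis, co-culture minus control) of the tested genes of 7 lists around the network, 1 point per gene, purple where the adjusted p was under 0.05, with a black bar at each list's median. The medians lie between -0.07 and 0.06, and 7 genes passed.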

How the data were processed

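RNA of 6 GFP+ HEK293 samples was sequenced with a strand-specific mRNA kit, per the labels' protocols. Each sample's deposited file gives raw, unnormalised read counts for every gene in the layout of STAR's own counter. The submitters' processing notes name STAR 2.53a, FastQC and the genome build hg18. The annotation is not given in the sources used here. Groups and replicate numbers came from the sample titles. The chi-square per degree of freedom between libraries of a group was 4.56 to 17.7, so none was a repeat of another in its group. Libraries of different groups were not compared in this way.

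Reverse-strand counts were tested in R 4.3.3 by edgeR 4.0.16, the group being the model's single factor: filterByExpr at a minimum count of 10 (14582 of 23686 genes kept), TMM scaling, robust dispersions and the quasi-likelihood F test, adjusted over all tested genes at 0.05. The 4 summary lines were left out; reads without a gene were 14.8% to 17.7% and multimapping reads 6.48% to 8.42%. SEs were derived from the log2 fold change and the F statistic. Alternatives included DESeq2 1.42.0 and limma-voom (limma 3.58.1). The scripts were tested on simulated counts. Intervals and the allowance of 3 reads for a count of 0 cover counting error or replicate spread only.

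The network members and all lists were chosen with earlier results of these data known. Named were all members, the MLX arm, PVT1, and from each other list up to 4 genes past the threshold in each direction or, with none, the 2 largest differences at a mean of at least 5 CPM; 1 gene so chosen is not reported here. VIM and MYCNOS were named after their values were seen. Of 153 list entries, 3 were matched through an older symbol (MYCL1, KIAA1524 and PHB). GENCODE 29 and RefSeq GRCh38.p14 served only for lengths, overlapping neighbours and promoter windows, since their build differs from that of the counts.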

Additional observations from a re-analysis of the deposited data

How the results depend on the processing

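MAX and MXD4 passed with total counts, upper-quartile scaling, DESeq2, limma-voom, both other filters and counts without regard to strand. With total counts 35.1% of called genes were higher, against 55.1%. Same-numbered libraries had correlations of -0.09 to -0.04 in their deviations from the group means, so the values gave no sign of pairing by replicate number. Such correlations cannot settle whether the samples were paired by design. With the replicate block 164 genes and 0 members passed, with MAX at -0.37 and MXD4 at -0.30, 2 MYC-MIZ1 targets passed, and the cofactor, turnover and MYC-activated lists had 0. With the strand class 29 genes and 0 members passed, with MAX at -0.20, MXD4 at -0.30, MGA at 0.036 and MLXIP at -0.015, 0 genes of any list passed, and the corepressor median was 0.0029. Leaving out each library gave 65 to 3069 genes (0.440% to 20.8% of those tested) and 0 to 6 of the 10 members. The causes were not tested.

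The members' log2 fold changes without 1 library ran from -0.42 to -0.28 (MYC), 0.066 to 0.61 (MYCN), -0.080 to 0.17 (MYCL1), -0.45 to -0.32 (MAX), -0.36 to -0.19 (MXD1), -0.074 to 0.20 (MXD3), -0.34 to -0.25 (MXD4), 0.18 to 0.33 (MXI1), -0.033 to 0.11 (MNT) and -0.098 to 0.024 (MGA), and from -0.013 to 0.13 for MLXIP. MYCL1 stood at -0.030 with total counts and -0.0091 with upper-quartile scaling. Without 1 library, list medians ran from -0.15 to -0.0035 (cofactors), -0.053 to -0.0095 (corepressors), -0.13 to -0.031 (PRC1.6), -0.085 to -0.016 (turnover) and 0.015 to 0.21 (MYC-MIZ1 targets). Counts ran from 0 to 2 (MLX arm), 0 to 6 (cofactors), 0 to 3 (corepressors), 0 to 1 (PRC1.6), 0 to 6 (turnover), 0 to 18 (MYC-activated) and 0 to 9 (MYC-MIZ1). In the turnover list 3 passed with total counts and 2 with upper-quartile scaling, DESeq2 or a 5 CPM filter. In the MYC-activated list 4 passed with total counts, 3 with DESeq2, and 2 with upper-quartile scaling, no filter or unstranded counts. The shares of all genes called were 6.05% (total counts), 5.29% (upper-quartile scaling), 6.96% (DESeq2), 6.29% (5 CPM filter), 4.50% (no filter) and 4.46% (unstranded counts). The corepressor median was -0.074 with total counts, and the MYC-MIZ1 median 0.12 with the 5 CPM filter.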
